A study of Mus musculus with 8 samples.

Results

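The heat shock proteins, chaperonins and J proteins were followed in mouse embryonic stem cells (mESCs) that differed in the transcription factor KLF3. The genes were chosen by symbol: the Hspa, Hsph, Hsp90, Hspb, Hspd1 and Hspe1, Cct, Dnaja, Dnajb and Dnajc genes, with the endoplasmic reticulum (ER) chaperones Hspa5, Hsp90b1, Dnajb9, Dnajb11, Dnajc3 and Dnajc10 left out. The rule found 71 genes among the 14709 genes with a value in either experiment, and 67 of them had a value in both. Although the set was meant to be cytosolic, its symbols also took in 9 genes whose products work in mitochondria, such as Hspa9 and Hspd1, and 7 whose products lie in the ER.

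Of 8 samples, 2 belonged to each of 4 conditions in 2 experiments. All cells were mESCs of a C57BL/6(F) x 129/sv(M) background grown in serum and LIF. For the sorted cells, a line carried PB-CAGGS-Klf3-EmeraldGFP-EF1α-DsRed, in which the CAGGS promoter drives the N-terminal stretch of KLF3, without its DNA-binding domain, fused to GFP. Each sample held 500 cells sorted as KLF3-GFP-positive or KLF3-GFP-negative, and full-length cDNA was made by Smart-seq2. For overexpression, codon-optimised Klf3 or, as control, GFP stood at an FRT site in the Col1A1 locus of R26 cells, which carry R26-M2rtTA, and was induced with doxycycline for 72 hours before poly(A) RNA was sequenced. In both experiments the lines had been grown from picked colonies, so clone and construct cannot be told apart in the overexpression contrast.

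The unit is FPKM, fragments scaled to the length of the transcript and to the size of the library, and each condition had a single value, the authors' mean of its 2 samples. No spread between samples, depth or p-value could therefore be had, and every difference below is one between 2 means. Differences are of log2(FPKM + 1), the second condition minus its control, for genes that averaged 1 FPKM or more across the pair of conditions. A gene is called higher or lower past 2-fold when this difference was above 1 or below -1. In sorted cells 53 of 68 listed members passed the minimum, and in overexpressing cells 61 of 70. No member under the minimum differed by as much as 2-fold on this scale. Levels were compared within an experiment only.

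Chaperones keep proteins from aggregating and help them fold. Hsp70 proteins bind short exposed stretches in a cycle driven by ATP, J proteins (the Dnaj genes) bring them their clients and start ATP hydrolysis, and exchange factors such as Hsph1 reset the cycle. Hsp90 takes over clients that are nearly folded, often kinases and receptors, with the help of co-chaperones. The Cct subunits form the 2-ring chamber in which actin and tubulin fold, Hspd1 and Hspe1 are the chamber and lid of mitochondria, and small heat shock proteins (the Hspb genes) hold unfolded proteins without using ATP. Many of these genes have both a steady level and a heat-induced one, the latter through heat shock factor 1 (Hsf1), which binds inverted GAA units. Embryonic stem cells are known for high steady levels of several chaperones.

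The letters that HSF1 binds were read from the promoters, 250 bases before to 50 after each start, in RefSeq's table for GRCm38.p6. For 57 of the 71 genes the table had a window, 76 windows in all. A pair of units facing each other, GAANNTTC or TTCNNGAA, was found on either strand in 18 of the 76 windows (23.7%), against 15.1% of all 32851 promoters. A run of 3 such units, which contains overlapping pairs, was found in 6 windows (7.89%) of the genes Dnajb6, Hspd1, Hspe1 and Hsph1, against 0.603% of all promoters. These windows are not separate sites. Both windows of Dnajb6 held the same run, as did both of Hsph1, and Hspd1 and Hspe1 shared theirs. All promoters were likewise counted by window. The box CCACACCC, of the CACCC type that KLF proteins bind, was found on either strand in 4 windows (5.26%), those of Dnaja4, Hspa12a, Hspa1a and Hspa1b, against 3.56% of all promoters. A match is a run of letters and not a site shown to be bound.

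The stretches below carry these pairs and belong to genes whose levels ranged from the lowest value of the tables to 1564 FPKM, with the units and the bases between them in capitals. The Hspe1 stretch (chr1:55088053-55088082, plus strand) lies before the start of Hspe1 and, on the other strand, before a RefSeq start of Hspd1, so windows of both genes hold the same 18 bases. Dnajb6 (chr5:29735846-29735870, plus strand) and Hsph1 (chr5:149636356-149636375, minus strand) are shown with short flanks because these bases also fall in a first exon. The stretches of Hspa1a (chr17:34972233-34972280, minus strand) and Hspa1b (chr17:34959315-34959362, minus strand) were the same in all 48 bases, and Hspb1 (chr5:135887782-135887849, plus strand) has 2 separate pairs.
Hspe1: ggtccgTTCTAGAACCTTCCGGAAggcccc
Dnajb6: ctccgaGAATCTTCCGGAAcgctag
Hsph1: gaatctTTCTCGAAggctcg
Hspa1a: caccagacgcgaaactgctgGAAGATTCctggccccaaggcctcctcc
Hspa1b: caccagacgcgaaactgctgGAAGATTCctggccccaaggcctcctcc
Hspb1: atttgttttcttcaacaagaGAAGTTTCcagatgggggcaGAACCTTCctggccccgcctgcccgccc

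Genes that share these letters differed widely in level. Hspe1, with its run of units, was among the most abundant genes of the set in every condition, with 716 to 1564 FPKM. Hspa1a and Hspa1b, the classical heat-induced Hsp70 genes, were at or near the lowest value of the tables in sorted cells, with 0.10 FPKM each in negative cells, and reached no more than 1.15 FPKM in any condition. Their coding sequences were 99.4% identical, so reads could be split between them. Dnajb6, Hsph1 and Hspb1 are described below with their classes.

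The cells were checked against markers before the classes were compared. The stem cell gene Pou5f1 was read at 115 FPKM in negative and 59.4 FPKM in positive cells, and at 883 and 990 FPKM in GFP- and KLF3-overexpressing cells. In sorted cells 8 of 8 stem cell markers were lower in positive cells, 5 of them past 2-fold, and after overexpression 6 of 8 were lower, 2 past 2-fold. All 8 primitive endoderm markers, such as Gata4, Gata6 and Dab2, were past 2-fold higher in both experiments, Sox7 after overexpression no longer so with the trend on gene span removed (0.93), and their summed level went from 8.27 to 422 FPKM in sorted cells and from 21.5 to 118 FPKM after overexpression. Markers of fibroblasts or feeder cells summed to at most 3.93 FPKM in any condition. Those of trophoblast summed to 5.63 and 2.61 FPKM in sorted cells and to 32.1 and 28.7 FPKM after overexpression, most of it Tfap2c (26.2 and 13.1 FPKM). There 3 of the 4 trophoblast markers tested were higher, with Hand1 at 0.83 and 4.16 FPKM past 2-fold (1.496) and Krt7 at 4.14 and 8.76 FPKM (0.93), while Cdx2 was at most at 0.60 FPKM in any condition. In such bulk samples, more cells of a type and more RNA per cell cannot be told apart, and the part of these shifts in the values below was not tested. Klf3 itself was at 107 and 122 FPKM in negative and positive cells and at 58.7 and 47.8 FPKM in GFP- and KLF3-overexpressing cells. It checks neither contrast, since the sorted line carries part of Klf3 in its reporter and the overexpressed Klf3 had altered codons.

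As a set, the members were lower in KLF3-GFP-positive cells. Their summed level was 14216 FPKM in negative and 10580 FPKM in positive cells, 1.57% and 1.12% of all FPKM, and the 32 of 53 members with a lower value compare with 48.1% of all 9212 genes. Their median difference was -0.20, against 0.03 for all genes. Past 2-fold, 3 members were higher (13.8% of all genes) and 2 lower (8.32% of all genes). The lower values lay at the abundant end of the set, since of the 18 members with a mean of at least 100 FPKM, 15 were lower, with a median of -0.41, while among all 1031 genes of that level 53.3% were lower, with a median of -0.05.

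After KLF3 overexpression the members' share of all FPKM was lower as well. It was 2.22% with GFP and 1.55% with KLF3, and 1.81% and 1.44% without Hsp90aa1. The members' summed level was 13610 FPKM with GFP and 12947 FPKM with KLF3, and without Hsp90aa1 it was 11107 and 12055 FPKM, while the sum over all genes was 612621 and 834882 FPKM. All 11179 genes had a median difference of -0.18, and 59.4% were lower. The members' median of -0.06 thus lay 0.11 above that of all genes, with 34 of 61 lower, and turned positive, at 0.13, once the 2 columns were scaled to a common median ratio. This order depended on the setting. With quantile normalization the members' median was -0.14, below the -0.03 of all genes, and with the trend on gene span removed the medians were 0.0057 and -0.011. On the values as deposited, 3 members were past 2-fold higher (6.6% of all genes) and 4 lower (10.1% of all genes). Among abundant genes the members lagged: the 19 with a mean of at least 100 FPKM had a median of -0.03, whereas all 956 genes of that level had a median of 0.54 and 22.7% of them were lower.

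**Figure D1:**
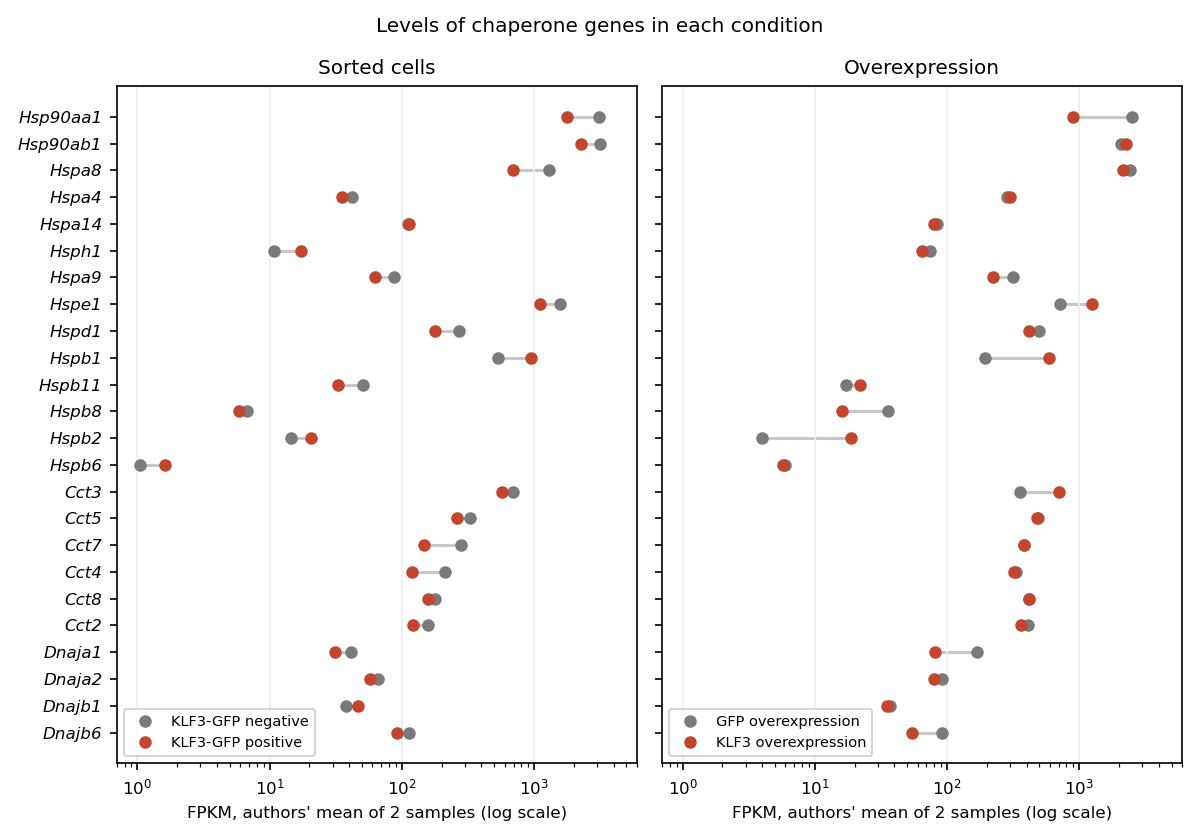
Levels of 24 chaperone genes, in FPKM on a log scale, with grey points for the control and red points for the other condition of each experiment, each point being the authors' mean of 2 samples. In sorted cells the Hsp90 genes, Hspa8 and the Cct genes lie lower in positive cells and Hspb1 higher, and after KLF3 overexpression Hsp90aa1 and Dnaja1 lie lower and Hspb1, Hspb2, Hspe1 and Cct3 higher.

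Both cytosolic Hsp90 genes were lower in KLF3-GFP-positive cells. Hsp90aa1 (chr12:110690605-110702728), the stress-inducible form, went from 3113 to 1770 FPKM, a difference of -0.81. Hsp90ab1 (chr17:45567775-45573271), the form made at a steady rate, went from 3145 to 2285 FPKM, a difference of -0.46. After KLF3 overexpression the pair parted. Hsp90aa1 was past 2-fold lower, at 2503 FPKM with GFP and 892 FPKM with KLF3 (-1.49), whereas Hsp90ab1 stood at 2061 and 2278 FPKM (0.14). The ratio of Hsp90aa1 to Hsp90ab1 was 0.99 in negative and 0.774 in positive cells, and 1.21 with GFP and 0.392 with KLF3. With median-ratio scaling Hsp90aa1 was at -1.28, and it was past 2-fold lower under each of the 7 alternatives tried, whereas Hsp90ab1 turned to -0.55 with quantile normalization. The coding sequences of the genes are 75.3% identical.

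The co-chaperones that load and pace Hsp90 were mostly lower in positive cells too. Of the 21 measured, 19 were lower and their median difference was -0.36, against 48.1% lower and a median of 0.03 over all genes. The lowest were members of the R2TP complex, which uses Hsp90 to assemble large complexes such as RNA polymerase. Rpap3 went from 25.3 to 10.4 FPKM (-1.21) and Ruvbl2 from 91.8 to 43.8 FPKM (-1.05), and Ruvbl1, from 111 to 55.01 FPKM, was just short of 2-fold. Pih1d1, the remaining subunit and chosen here after its values were seen, went from 88.4 to 68.7 FPKM (-0.36). Stip1, which hands clients from Hsp70 to Hsp90, went from 108 to 54.4 FPKM (-0.97). After KLF3 overexpression none of the 21 was past 2-fold in either direction, where 6.6% of all genes were higher and 10.1% lower. Their median was -0.07, or 0.11 above that of all genes. There Ruvbl1 and Ruvbl2 were at 109 and 183 FPKM with GFP and at 114 and 201 FPKM with KLF3. The largest differences were those of Cdc37l1 (-0.77), Nudc (0.67) and Cdc37, the adaptor for kinases, which went from 126 to 193 FPKM (0.61).

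Hsp70 was dominated by Hspa8, the constitutive cytosolic form. It went from 1291 FPKM in negative to 694 FPKM in positive cells (-0.90) and went from 2426 to 2151 FPKM after overexpression (-0.17), close to the median of all genes there. Hspa4, an exchange factor of the Hsp110 family, went from 42.2 to 35.2 FPKM in sorted cells (-0.26) and from 284 to 300 FPKM after overexpression (0.07). Hsph1, its heat-inducible relative, went the other way in positive cells, from 10.8 to 17.2 FPKM (0.63), and from 73.96 to 64.9 FPKM after overexpression (-0.19). Hspa14, which works on ribosomes with a J protein, was level, at 112 and 113 FPKM in sorted cells and 84.7 and 79.8 FPKM in overexpressing cells. A gene model of the same name overlaps Hspa14, so its reads may be split.

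The remaining Hsp70 genes were low. Hspa13, whose product sits in the ER-linked microsomes, went from 1 to 2.34 FPKM in sorted cells (0.74) and from 2.88 to 2.38 FPKM after overexpression (-0.20). Hspa2, known from spermatocytes, went from 2.93 to 1.42 FPKM (-0.70) and Hspa4l from 2.2 to 0.73 FPKM (-0.89) after overexpression, and both had means under 1 FPKM in sorted cells. Hspa12b, a distant relative expressed in endothelium, was at 9.87 FPKM in negative cells and at the lowest value of the table, 0.10 FPKM, in positive cells. Its difference of -3.30 was the largest of the set, but its size depends on the pseudocount because the value in positive cells is the lowest possible. The mean of 4.985 FPKM also falls short of the alternative minimum of 5 FPKM. In overexpressing cells the gene was at 0.14 and 0.13 FPKM. The gene model Gm11037 overlaps it on the same strand.

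Of the partners of Hsp70, Bag2 stood out in sorted cells. Bag2, whose product blocks the ubiquitin ligase Stub1, went from 5.34 to 37.0 FPKM (2.58), and Stub1 went from 73.8 to 46.4 FPKM (-0.66). Bag3, a heat-inducible exchange factor for aggregate clearance, was also past 2-fold higher, from 0.66 to 3.50 FPKM (1.44), and Bag5 nearly so, from 8.74 to 18.2 FPKM (0.98). In all, 9 of 13 partners were higher and 2 past 2-fold, near the 13.8% of all genes. After overexpression Bag2 was at 5.72 and 6.94 FPKM, and 2 of 13 partners were past 2-fold lower, against 10.1% of all genes. St13, which stabilises Hsp70 bound to ADP, went from 296 to 131 FPKM (-1.17), or -0.77 with the trend on gene span removed, and Tomm34, which serves import into mitochondria, went from 69.03 to 29.01 FPKM (-1.22). Stub1 went from 42.9 to 81.5 FPKM (0.91). Among members, Hspbp1, which releases ADP from Hsp70, went from 46.9 to 34.5 FPKM in sorted cells (-0.43) and from 30.1 to 57.2 FPKM after overexpression (0.90), and Hspbap1, which binds Hspb1, went from 19.2 to 10.1 FPKM in sorted cells (-0.87) and from 19.6 to 24.9 FPKM with KLF3 (0.33).

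Among small heat shock proteins, Hspb1 and Hspb2 were the members with the largest positive differences after overexpression. Hspb1 (Hsp27, chr5:135887919-135889563) was at 534 FPKM in negative and 949 FPKM in positive cells (0.83), and at 193 FPKM with GFP and 590.02 FPKM with KLF3 (1.61). It was thus the most abundant member to be higher in both experiments, and past 2-fold only after overexpression. The difference between the experiments themselves was not tested. Hspb2, otherwise known from muscle, went from 14.5 to 20.7 FPKM in sorted cells (0.49) and from 3.98 to 18.9 FPKM after overexpression (2.001). Hspb2 (chr9:50751078-50752354, minus strand) overlaps Cryab (chr9:50751325-50756636, plus strand), the small heat shock protein of the lens. Cryab itself, which has no Hsp symbol and so was not a member, went from 3.89 to 129 FPKM in sorted cells (4.73) and from 5.02 to 56.6 FPKM after overexpression (3.26). Without strand, as in Smart-seq2, reads in the shared part cannot be told apart. Whether strand was used in counting the overexpression libraries is not given in the sources used here.

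Other small heat shock proteins did not follow Hspb1. Hspb8, which works with Bag3, was past 2-fold lower after overexpression, from 35.6 to 16.1 FPKM (-1.10), or -0.90 with median-ratio scaling, and was at 6.77 and 5.86 FPKM in sorted cells (-0.18). Hspb6 was near 1 FPKM in sorted cells (1.04 and 1.63 FPKM, 0.37) and near 6 FPKM in overexpressing cells (5.96 and 5.71 FPKM, -0.05). Hspb11, which despite its symbol is a subunit of the transport machinery of cilia, went from 50.8 to 33.2 FPKM in sorted cells (-0.60) and from 17.2 to 21.9 FPKM with KLF3 (0.33).

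Short genes were higher as a class after KLF3 overexpression, and this moves with the values of Hspb1, Hspb2 and Hspe1. With all genes in 5 equal groups by genomic span, from short to long, the median difference was 0.35, -0.01, -0.22, -0.44 and -0.49, whereas in sorted cells it stayed between -0.03 and 0.12. With a smooth trend on span removed, Hspb1 was 1.05 and Hspb2 1.41, both still past 2-fold, and Hspe1 was 0.41. Its part in the differences was not tested further.

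**Figure D2:**
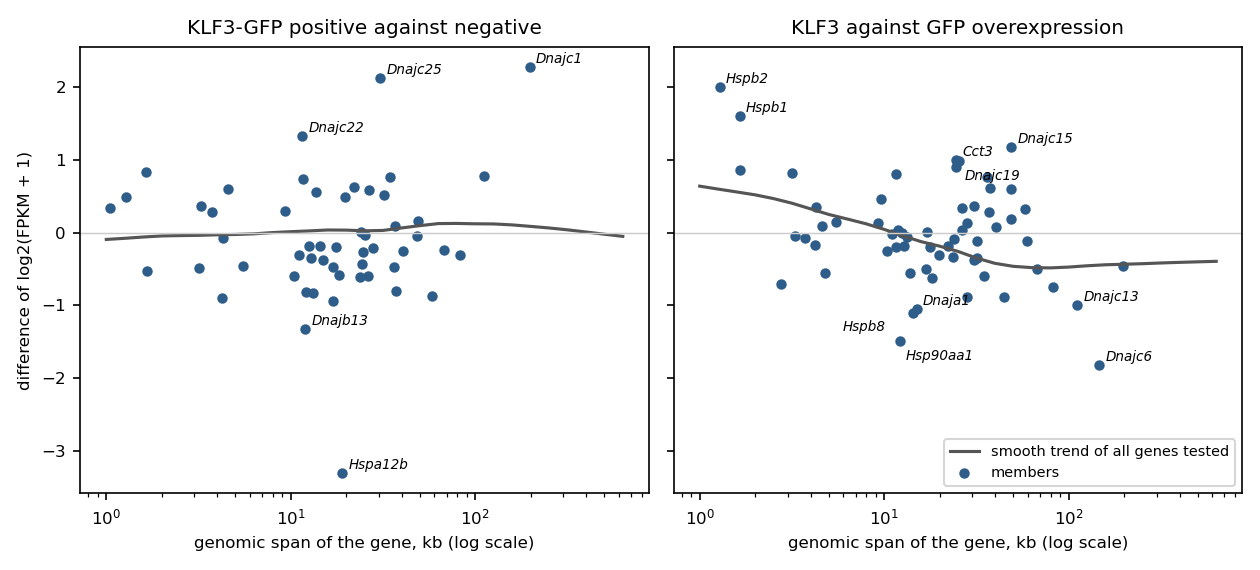
Difference of log2(FPKM + 1) against the genomic span of the gene, in kilobases on a log scale, for the members with a mean of at least 1 FPKM (points) and as a smooth trend over all genes tested (line). After KLF3 overexpression the trend falls from short to long genes, and Hspb1, Hspb2, Dnajc15, Hsp90aa1 and Dnajc6 are among the members that lie far from it. Cct3 and Dnajc19 lie further from it than Hspb1. In sorted cells the trend is nearly flat.

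The mitochondrial chaperonin is made of Hspd1 (chr1:55077835-55088243, minus strand) and Hspe1 (chr1:55088132-55091307, plus strand), a head-to-head pair known to share a promoter. In sorted cells both were lower and kept their ratio: Hspd1 went from 273 to 180 FPKM (-0.60) and Hspe1 from 1564 to 1116 FPKM (-0.49). After KLF3 overexpression they parted, with Hspd1 at 497 and 419 FPKM (-0.25) and Hspe1 at 716 and 1258 FPKM (0.81). The ratio of Hspe1 to Hspd1 was 5.74 and 6.21 in sorted cells, and 1.44 with GFP and 3.004 with KLF3. Both levels are less certain than most, since the genes overlap and the annotation has 5 named pseudogenes of Hspd1 and 6 of Hspe1. Hspa9, the Hsp70 of mitochondria, was lower in both experiments, from 88.04 to 63.2 FPKM in sorted cells (-0.47) and from 316 to 222 FPKM after overexpression (-0.51).

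All 6 subunits of the cytosolic chaperonin measured in sorted cells were lower in positive cells, with a median difference of -0.33. Cct7 went from 282 to 147 FPKM (-0.93) and Cct4 from 211 to 119 FPKM (-0.83). Cct2 went from 157 to 122 FPKM (-0.35), Cct5 from 327 to 263 FPKM (-0.31), Cct3 from 693 to 573 FPKM (-0.27) and Cct8 from 178 to 157 FPKM (-0.18). None reached 2-fold. Tcp1, the first subunit of the ring, which has no Cct symbol, went from 185 to 153 FPKM (-0.27), so the 7 subunits read here shared their direction.

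After KLF3 overexpression the Cct genes other than Cct3 were near 0 on the values as deposited. Cct3 (chr3:88297116-88321767) went from 354 to 708 FPKM, a difference of 0.996 just short of the limit, and was past it with median-ratio scaling (1.21) and with the span trend removed (1.25). The other Cct genes lay between -0.18 (Cct2, from 410 to 362 FPKM) and 0.01 (Cct7, from 384 to 386 FPKM), namely Cct6a from 498 to 461 FPKM (-0.11), Cct4 from 334 to 320 FPKM (-0.06), Cct5 from 493 to 484 FPKM (-0.03) and Cct8 from 416 to 415 FPKM (-0.0038). Tcp1 was at 425 and 403 FPKM (-0.08). The median of the 7 Cct genes tested, -0.03, lay 0.15 above that of all genes. All 7 averaged more than 100 FPKM, and the 956 genes of at least that level had a median of 0.54. The Cct median became 0.18 with median-ratio scaling and 0.04 with the span trend removed. With quantile normalization it was -0.55, where the median of all genes was -0.03. In the GFP cells the 8 subunits of the ring, in which each takes an equal place, lay within 1.49-fold of one another, and Cct3 stood at 0.853 times the median of the other 7. With KLF3 it stood at 1.76 times that median, while the other 7 still lay within 1.51-fold. In sorted cells Cct3 was the highest subunit in both conditions, at 3.5 times the median of the other 6 in negative and 3.82 times in positive cells. The annotation has 1 named pseudogene of Cct3. Cct6b, the testis form, had a mean under 1 FPKM in both experiments.

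**Figure D3:**
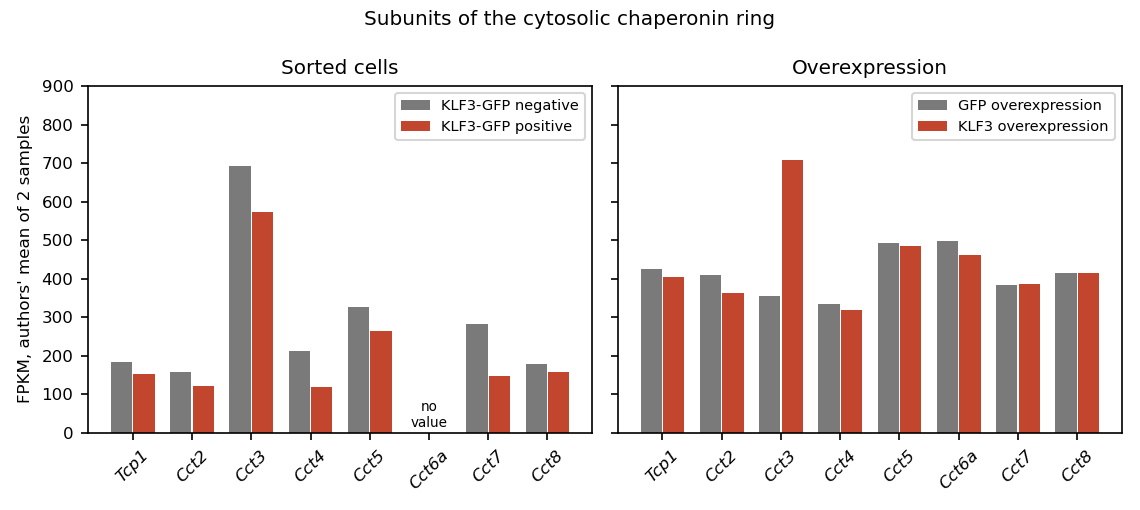
Levels of the subunits of the cytosolic chaperonin in FPKM, as bars of the authors' mean of 2 samples, for control (grey) and other condition (red) of each experiment. Each subunit with a value is lower in KLF3-GFP-positive cells, and Cct3, at 354 and 708 FPKM, differs most after KLF3 overexpression.

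Proteins that feed the ring were split by experiment. The list used for them also counts Tcp1 of the ring itself, which was lower in both experiments (-0.27 and -0.08). In sorted cells 8 of 12 genes of this list, mostly prefoldin subunits and phosducin-like partners, were lower, against 48.1% of all genes. None was past 2-fold, where 13.8% of all genes were higher and 8.32% lower. Vbp1, the third prefoldin subunit, went from 104 to 57.7 FPKM (-0.83), Pfdn1 from 399 to 282 FPKM (-0.50) and Pfdn4 from 212 to 153 FPKM (-0.46). After overexpression 9 of 13 were higher, with a median of 0.37, or 0.55 above that of all genes, of which 59.4% were lower. Pfdn5 went from 208 to 486 FPKM (1.22) and Pfdn6 from 161 to 389 FPKM (1.27), the latter 0.70 with the span trend removed. Pdcl2 was past 2-fold lower, from 4.88 to 1 FPKM (-1.56).

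The 3 members past 2-fold higher in sorted cells were J proteins. Dnajc1 (chr2:18195654-18392830), a J protein of the ER membrane that faces both the lumen and the ribosome, went from 4.06 to 23.4 FPKM (2.27). Dnajc25 (chr4:58995062-59025573) went from 4.85 to 24.4 FPKM (2.12), and Dnajc22 (chr15:99093170-99104737) from 3.29 to 9.74 FPKM (1.32). The gene model Gm20503 overlaps Dnajc25 on the same strand and was at 0.10 and 2.87 FPKM. Next came Dnajc13, which acts on endosomes, from 2.18 to 4.46 FPKM (0.78), Dnajc5, the cysteine string protein of vesicles, from 5.19 to 9.47 FPKM (0.76), and Dnajc4, from 15.2 to 23.6 FPKM (0.61).

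At the lower end in sorted cells were a sperm gene and abundant nuclear and cytosolic J proteins. Dnajb13, known from the flagella of sperm, was past 2-fold lower, from 3.27 to 0.70 FPKM (-1.33). Dnajc7, which recovers clients from Hsp90, went from 136 to 77.98 FPKM (-0.80), Dnajc21, needed to make ribosomes, from 33.96 to 21.98 FPKM (-0.61) and Dnajc8, of the splicing machinery, from 353 to 236 FPKM (-0.58). Dnajc30 went from 15.7 to 10.6 FPKM (-0.52) and Dnajc17 from 21.8 to 15.4 FPKM (-0.48). The most abundant J proteins of these cells included Dnajc19 (734 and 715 FPKM, -0.04) and Dnajc15 (188 and 210 FPKM, 0.16), and both stood nearly level. Dnajb6, which holds back amyloid, went from 113 to 91.8 FPKM (-0.30).

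By subclass, the 3 Dnaja genes were all lower in positive cells, with Dnaja1, a main partner of Hspa8, going from 41.2 to 31.4 FPKM (-0.38), Dnaja3 from 10.3 to 8.53 FPKM (-0.24) and Dnaja2 from 66.1 to 57.4 FPKM (-0.20). Of 6 Dnajb genes 4 were higher, with a median of 0.29, and of 20 Dnajc genes 11 were higher, with a median of 0.13. Both medians were below 0 when only genes of at least 5 FPKM were kept. Set against the rest, 14 of 29 J proteins but 18 of 24 other members were lower, with medians of 0.09 and -0.39.

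KLF3 overexpression gave another order. Dnaja1 (chr4:40722150-40737149) was past 2-fold lower, from 169 to 80.9 FPKM (-1.06), which became -0.85 with median-ratio scaling and -0.95 with the span trend removed. Dnajc6, the auxilin that strips clathrin from vesicles, went from 8.27 to 1.62 FPKM (-1.82), and Dnajc13, from 18.6 to 8.82 FPKM (-0.996), was just short of the limit. Dnajc27 went from 4.30 to 1.87 FPKM (-0.88), Dnajb6 from 91.4 to 53.9 FPKM (-0.75) and Dnajc8 from 349 to 227 FPKM (-0.62). With the span trend removed, Dnajc6 was still past 2-fold lower (-1.38). Dnajc13 was then at -0.53, Dnajc27 at -0.58, Dnajb6 at -0.27 and Dnajc8 at -0.46. The highest values relative to control were those of mitochondrial J proteins. Dnajc15 went from 39.5 to 90.7 FPKM (1.18) and Dnajc19 from 78.1 to 156 FPKM (0.99). Both sit in the inner membrane at the import channel, where they start the cycle of Hspa9. Dnajc30 went from 5.39 to 10.6 FPKM (0.86), Dnajc22 from 4.26 to 8.18 FPKM (0.80), Dnajc17 from 18.8 to 32.5 FPKM (0.76) and Dnajc7 from 142 to 218 FPKM (0.62). Dnajc2, the J protein of ribosomes and among the 5 most abundant here, stood at 82.2 and 90.05 FPKM (0.13).

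**Figure D4:**
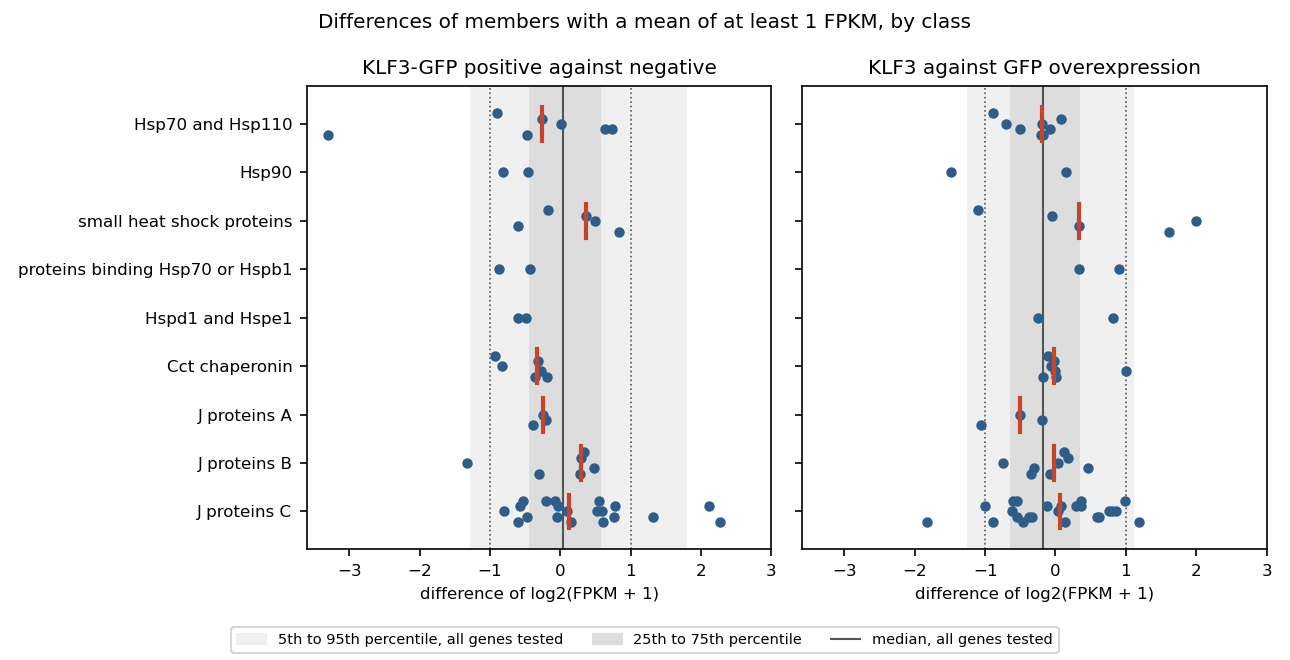
Difference of log2(FPKM + 1) of each member with a mean of at least 1 FPKM (blue points) by class, with a red bar at the median of classes of more than 2, in sorted cells (left) and after overexpression (right). Grey bands hold 50% and 90% of all genes tested, the dark line is their median and the dotted lines mark 2-fold. The Cct and Hsp90 points all lie left of 0 in sorted cells, and Hspb1 and Hspb2 are the rightmost points after overexpression.

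Members were also grouped by where their products work, a grouping made after the values were seen and given as a description, with no test. Of mitochondrial members, 7 of 8 were lower in positive cells, with a median of -0.36, whereas after overexpression 5 of 9 were higher, with a median of 0.59, or 0.31 with the span trend removed. Of ER members, 5 of 5 were higher in positive cells, with a median of 0.55. After overexpression 1 of 7 was higher, with a median of -0.30, or -0.04 with the span trend removed. In sorted cells these were Dnajc1 and Hspa13 above, Dnajc14 (1.24 and 2.29 FPKM, 0.55), Dnajc18 (1.62 and 2.75 FPKM, 0.52) and Dnajb12 (3.01 and 4.61 FPKM, 0.48). Members in neither group had medians of -0.23 and -0.03. All genes tested had medians of 0.03 in sorted cells and -0.18 after overexpression. Of them 48.1% were lower in positive cells and 59.4% were lower after overexpression.

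The 6 ER chaperones left out of the set give the other side of that comparison. All 6 were higher in positive cells, with a median of 1.35, against 0.03 for all genes. Of them 5 were past 2-fold higher, as were 13.8% of all genes. Hspa5 (BiP), the Hsp70 of the ER, went from 136 to 319 FPKM (1.23) and Hsp90b1, its Hsp90, from 187 to 487 FPKM (1.37). Dnajc3 went from 3.63 to 29.97 FPKM (2.74), Dnajb11 from 58.8 to 181 FPKM (1.61), Dnajc10 from 3.44 to 10.2 FPKM (1.33) and Dnajb9 from 2.14 to 4.47 FPKM (0.80). In the same cells the cytosolic forms Hspa8 and Hsp90aa1 differed in the opposite direction (-0.90 and -0.81). After KLF3 overexpression 1 of the 6, Dnajb11, was past 2-fold higher (25.9 and 54.99 FPKM, 1.06), as were 6.6% of all genes. Hspa5 was at 258 and 299.5 FPKM (0.21), Hsp90b1 at 459 and 408 FPKM (-0.17) and Dnajc3 at 5.28 and 5.82 FPKM (0.12). Dnajc10 was at 17.2 and 10.2 FPKM (-0.70) and Dnajb9 at 8.26 and 3.84 FPKM (-0.94). Among 11 other mitochondrial chaperones and proteases none was past 2-fold in either experiment. Of all genes, 13.8% were past 2-fold higher and 8.32% lower in sorted cells, and 6.6% and 10.1% after overexpression. Lonp1, Clpb and Trap1 differed most in sorted cells (0.84, -0.76 and -0.75), and Clpp, Grpel2 and Clpx after overexpression (0.91, -0.80 and -0.75).

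Genes known to be heat-induced showed no shared direction. Of 14 on a list of HSF1 targets, 11 of them members, 11 passed the minimum in sorted cells, where 2 were past 2-fold higher (Cryab and Bag3), none lower (13.8% and 8.32% of all genes), and the median was -0.04, against 0.03 for all genes. Among 12 in overexpressing cells, 2 were past 2-fold higher (Cryab and Hspb1) and 3 lower (Hsp90aa1, Hspb8 and Dnaja1), where 6.6% and 10.1% of all genes were, with a median of -0.22, against -0.18 for all genes. Dnajb1, the J protein most tied to the heat response, was at 38.01 and 46.4 FPKM in sorted cells (0.28) and at 37.3 and 35.4 FPKM in overexpressing cells (-0.08). Hsf1 itself was at 4.66 and 4.94 FPKM in sorted cells and at 19.97 FPKM in both GFP and KLF3 cells. Hsf2 was at 2.77 and 3.19 FPKM in sorted cells and at 17.01 and 9.27 FPKM in overexpressing cells (-0.81). Hsf2bp, named for binding Hsf2 and known from meiosis, was past 2-fold lower in both experiments, from 22.2 to 4.47 FPKM in sorted cells (-2.08) and from 49.2 to 19.4 FPKM with KLF3 (-1.30), the latter -0.82 with the span trend removed.

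The experiments share no samples, so the directions of the 51 members tested in both can be set side by side. Lower in both were 15 (29.4%, against 26.8% of all 8887 genes), among them Hsp90aa1, Hspa8, Hspa9, Hspd1, 4 Cct genes and the 3 Dnaja genes. Of these 15, Hspa8 (-0.17), Cct4 (-0.06), Cct5 (-0.03) and Cct8 (-0.0038) lay above the overexpression median of all genes (-0.18). With median-ratio scaling they were at 0.04, 0.14, 0.18 and 0.21. Higher in both were 9 (17.6%, against 23.8%), among them Hspb1, Hspb2, Dnajc15, Dnajc22 and Dnajc25. Another 16 were lower in sorted cells and higher after overexpression (31.4%, against 21.3%), among them Hsp90ab1, Hspe1, Cct3, Cct7, Hspa4 and Hspbp1, and 11 had the opposite pattern (21.6%, against 27.9%), among them Hsph1, Dnajb1, Hspa13 and Dnajc1. No member was past 2-fold in the same direction in both, against 3.24% of all genes. With the overexpression median of all genes in place of 0, 20 members were lower in sorted cells and above that median (39.2%, against 25.6%). The shares are a description of these 2 experiments and were not tested.

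**Figure D5:**
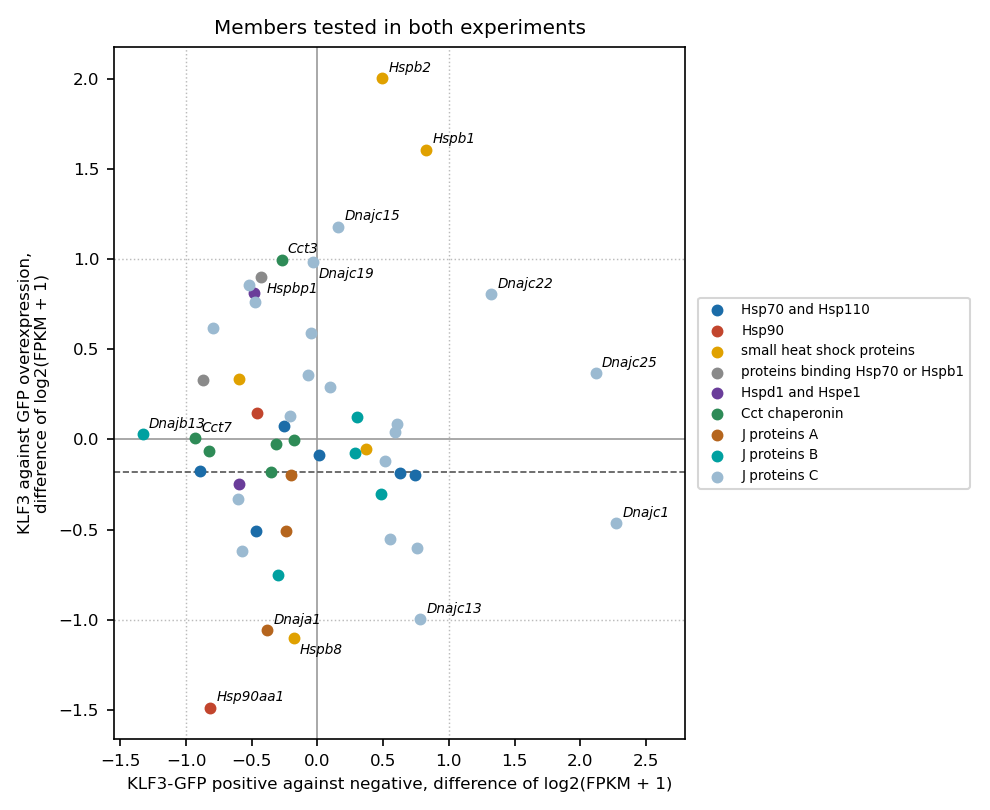
Difference of log2(FPKM + 1) in sorted cells (horizontal) and after overexpression (vertical) for the 51 members tested in both, coloured by class, with dotted lines at 2-fold and a dashed line at the overexpression median of all genes, -0.18. Hsp90aa1 lies low in both, Hspb1 and Hspb2 lie above 0 in both and high after overexpression, and Dnajc1, Dnajc22 and Dnajc25 are high in sorted cells.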

How the data were processed

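RNA-seq had been performed on 2 samples of each of 4 conditions. Per the labels and the paper's methods, the authors aligned reads to mm10 with STAR (2.6.0 in the submitters' processing notes, another version in the methods) under the GENCODE annotation and computed FPKM with Cufflinks (2.2.1). They deposited 1 table per experiment with 1 FPKM column per condition, a mean of 2 samples with 2 decimals. Only protein-coding genes are listed, and no value is below 0.1. Read depth and the values of single samples are unknown, so no interval, SD or test could be given, and the limma fit planned for columns per sample was not run. The labels describe biological replicates.

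Differences of log2(FPKM + 1) were computed for genes averaging 1 FPKM or more (Python 3.11.15, pandas 2.3.3, numpy 2.4.6), and calls were made at 2-fold. The calculation was run on simulated columns with planted changes beyond that limit. Such a run checks the arithmetic only and not the calls made on these means. Alternatives were a pseudocount of 0.1, values floored at 0.1, no minimum, a minimum of 5 FPKM, median-ratio scaling, quantile normalization, and removal of a smooth trend (lowess, fraction 0.3, statsmodels 0.14.6) on genomic span. Coordinates are GENCODE M21 on GRCm38, 1-based. Coding identity was computed over the longest open reading frame of each gene.

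The members and gene lists were chosen with earlier results of these data known. Named are every tested member outside the J proteins. Of the J proteins, those named are the 6 largest differences in each direction, the 5 highest levels and all past 2-fold. Of other lists, those named are the 3 largest differences per experiment and all ER chaperones left out of the set. Other genes are named as examples. Member classes by compartment were made after the values were seen. No value was given here for Cct6a, Hspa1l and Hspb9 in sorted cells or for Dnajb7 in overexpressing cells. Protein sequences were not analysed here, and no promoter was used for Cct4, Dnajc11, Dnajc12, Dnajc18, Dnajc2, Dnajc22, Dnajc30, Dnajc5, Hsp90aa1, Hsp90ab1, Hspa13, Hspa8, Hspa9 and Hspb2.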

Additional observations from a re-analysis of the deposited data

How the results depend on the processing

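No paired analysis was possible because each condition had a single column, the mean of its 2 samples, and leaving out each replicate was not run for the same reason. In sorted cells the members' median and those of the Cct, Hsp70 and Hsp110, and small heat shock classes kept their direction under all 7 alternatives. The members past 2-fold higher numbered 5 with values floored at 0.1, and those lower numbered 0 with a minimum of 5 FPKM and 4 with quantile normalization. With the minimum of 5 FPKM the medians of the Dnajb and Dnajc genes were -0.00937 and -0.0435, and with quantile normalization that of the Dnajc genes was -0.00302. After overexpression the members' median was 0.13 with median-ratio scaling and 0.0057 with the span trend removed. With quantile normalization it was -0.14, where that of all genes was -0.03. The members past 2-fold higher numbered 8 with median-ratio scaling, 5 with quantile normalization and 9 with the span trend removed, and those lower numbered 7 with a pseudocount of 0.1, 9 with values floored at 0.1 and 2 with median-ratio scaling. The Cct median was 0.18 with median-ratio scaling, 0.0379 with the span trend removed and -0.55 with quantile normalization, and the Dnajb median was 0.0311 without a minimum, 0.15 with median-ratio scaling, 0.15 with quantile normalization and 0.0296 with the span trend removed. The median over all overexpression genes moved from -0.18 to -0.00041 with median-ratio scaling, and calls over all genes went from 738 higher and 1133 lower to 1164 and 699, so fewer members lower and more higher follow from that scaling. With values floored at 0.1 the calls over all genes were 955 and 1912 after overexpression and 1713 and 1084 in sorted cells, and with a minimum of 5 FPKM they were 840 and 417 in sorted cells, where fewer genes were tested. Removing the span trend gave 794 and 588, and quantile normalization 800 and 711. Among members past 2-fold after overexpression, Dnaja1 and Hspb8 were within 2-fold under the settings given beside them above. For the other changes the cause was not tested.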
